A study of Mus musculus with 2 samples.

Results

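Most of the 28 genes described here build or maintain the myelin of peripheral nerves, or cause inherited neuropathies when mutated. They were chosen by symbol as a list of peripheral myelin and neuropathy genes, and all 28 were found among the 32285 genes of the files. They were measured by single-cell RNA sequencing in dissociated L4 and L5 dorsal root ganglia (DRGs), the clusters of sensory neuron cell bodies beside the spinal cord. Both samples came from naive female C57BL/6 mice of 3 months of age, and are labelled biological replicates 1 and 2 of the same condition, with no treated or mutant group. The number of mice pooled in each is not given in the sources used here, so p-values measure only the spread between these samples. With a single condition in hand, the comparisons are between cell types, and the question is in which cells of the ganglion these genes were expressed and by how much.

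Myelinating Schwann cells wrap a single axon segment in many layers of their own membrane. The sheath has compact layers, held together by small membrane proteins such as *Mbp* and *Pmp22*, and channels of cytoplasm and junctions at its edges and along the axon. Non-myelinating Schwann cells hold thin axons in unwrapped bundles, and satellite glial cells (SGCs) surround the neuron cell bodies. Mutations in several genes of the sheath and of its membrane traffic cause demyelinating forms of Charcot-Marie-Tooth disease.

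The files hold 119101743 and 128668771 UMIs, from which 8812 and 8775 cells were called. A UMI is a tag that counts each captured transcript once. Clusters were named from marker pairs, among them *Ncmap* and *Mag* for myelinating Schwann cells, and 15856 cells were retained, of which 3198 were myelinating Schwann cells (1588 and 1610), 1310 non-myelinating Schwann cells, 6866 SGCs and 101 neurons. The other named types were endothelial cells, fibroblasts, mural cells and macrophages. The median depth of a myelinating Schwann cell was 5089 UMIs in replicate 1 and 5461.5 in replicate 2, against 14545.5 and 15601.5 in SGCs. The samples shared 135 cell barcodes, carried by 92 retained cells and by 3 of the myelinating Schwann cells. The 28 genes and the marker pairs were left out of the variable genes on which cells were clustered. Outside the 28 genes, *Gjb1*, the connexin of the sheath, stood at 75.2 and 84.5 CPM in myelinating Schwann cells and at no more than 4.6 in any other type. *Gjb1* was itself among the markers scored to name clusters, so this is no independent check of the label.

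Levels are in CPM: UMI counts summed over all cells of one type in one sample and scaled to a common total. Counts are of the 3′ ends of transcripts and do not grow with their length. Differences between types are log2 fold changes with their standard errors (SE) from edgeR's quasi-likelihood test on summed counts, with p-values adjusted by the Benjamini-Hochberg method over the 17961 genes tested and a threshold of 0.05. The mean of the other types is a mean of their log2 levels, with equal weight per type. It can lie well below the mean of their CPM where a single type holds most of a gene. All 28 genes passed the filter on low counts. Gene positions are on GRCm38.

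Together the 28 genes held 3.30% of all UMIs of myelinating Schwann cells in replicate 1 and 3.44% in replicate 2. In non-myelinating Schwann cells they held 0.726% and 0.751%, in SGCs 0.471% and 0.472%, and in the other 5 types between 0.164% and 0.254%. The 2 samples of the myelinating cells lay far above those of every other type. RNA outside cells carried these transcripts as well, since the 28 genes made up 0.738% and 0.726% of the UMIs of empty droplets, about as much as in non-myelinating Schwann cells. Free RNA was estimated at between 2.02% and 3.99% of the UMIs of a profile. With it subtracted, *Mbp* in non-myelinating Schwann cells moved from 747 in each sample to 731 and 727 CPM. After each cell was thinned to 1000 UMIs, a myelinating Schwann cell held UMIs of a median of 12 of the 28 genes in both samples, against 5 in non-myelinating Schwann cells and 3 in SGCs. Thinning left out 10 myelinating Schwann cells with fewer UMIs, and the unthinned median was 22 genes.

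**Figure D1:**
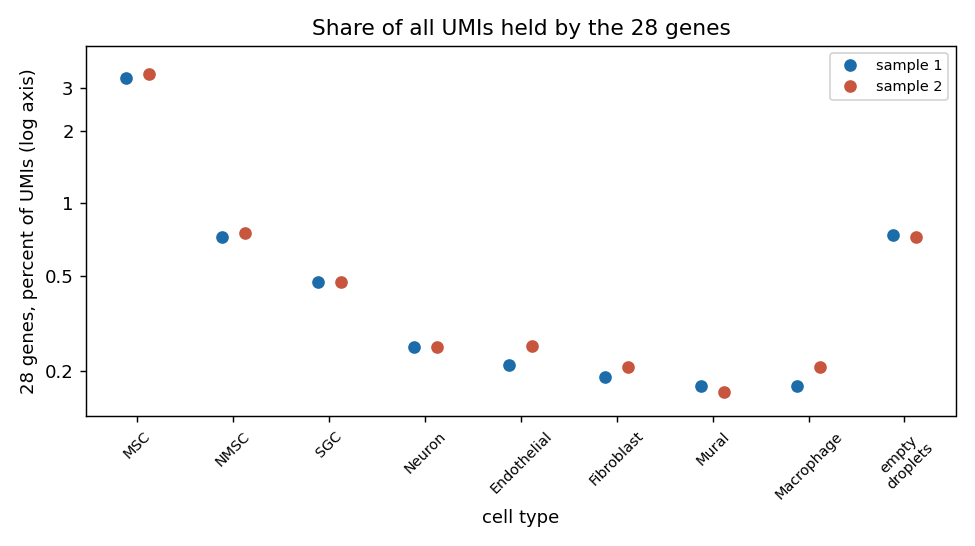
Share of all UMIs held by the 28 genes in each cell type and in empty droplets, in percent on a log axis, with 1 point per sample. Myelinating Schwann cells (MSC) stand at 3.30% and 3.44%, and non-myelinating Schwann cells (NMSC) at 0.726% and 0.751%, near the empty droplets.

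All 28 genes were higher in myelinating Schwann cells than in the mean of the 7 others, and 0 were lower. Of all genes tested, 26.4% were called higher and 24.7% lower in that comparison, and these shares apply to every count against that mean below. The median log2 fold change of the 28 was 5.0, beside -0.03 over all genes tested, and the values ran from 1.05 for *Sbf2* to 7.35 for *Ncmap*. Against each of the other types in turn, 23 of the 28 were higher every time, where 4.29% of all genes were. The remaining 5 were *Dhh*, *Fgd4*, *Cadm4*, *Arhgef10* and *Adgrg6*. Without *Ncmap* and *Mag*, which named the cells, the counts were 26 of 26 and 21 of 26, with a median log2 fold change of 4.42.

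**Figure D2:**
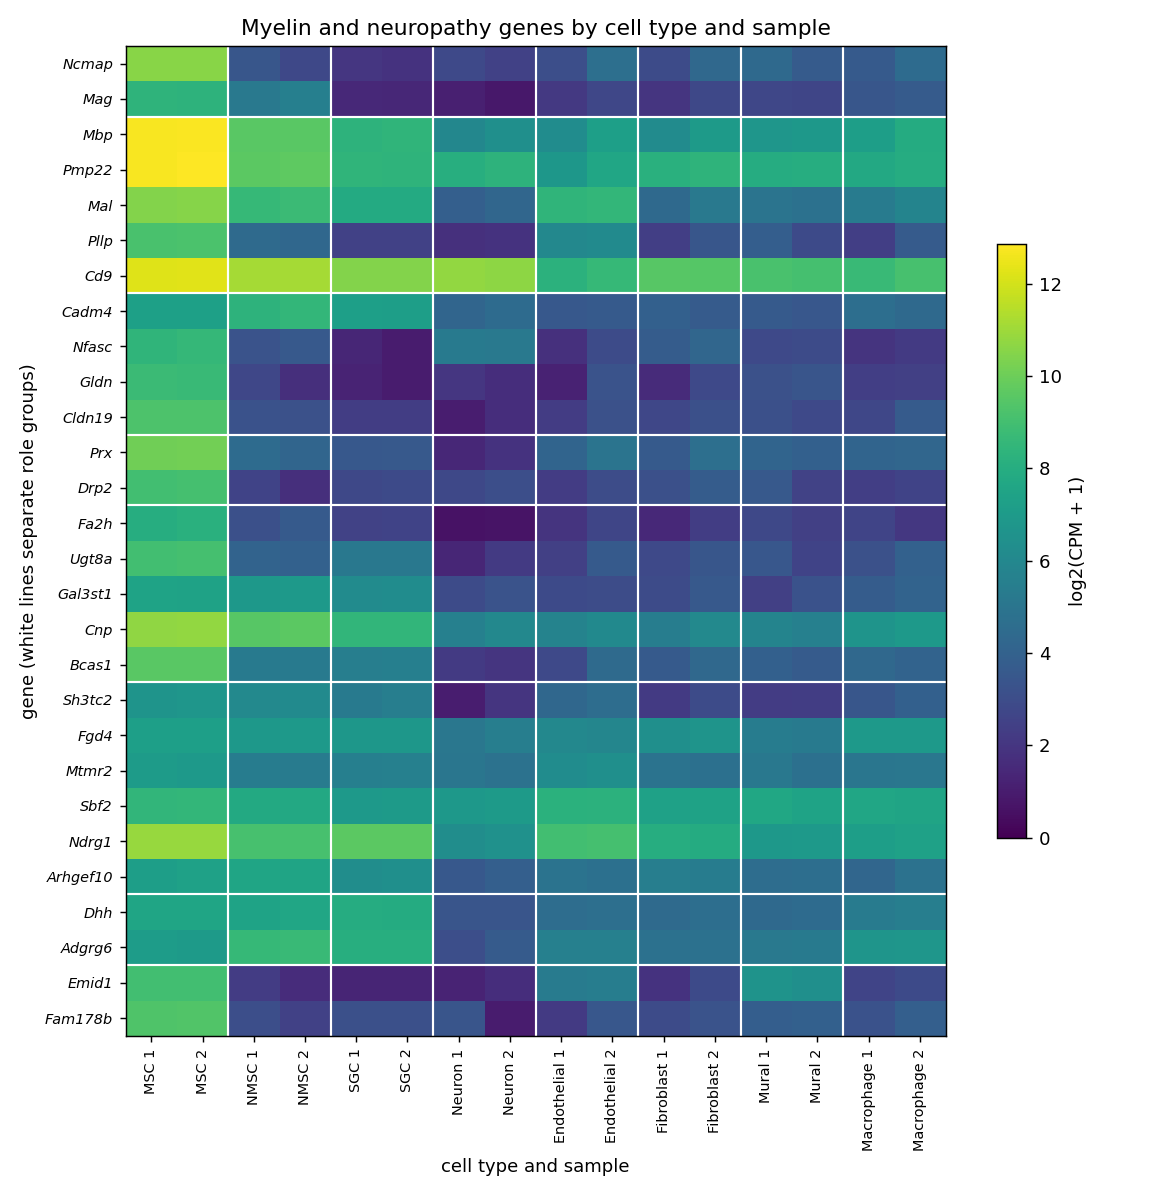
Levels of the 28 genes in the 8 cell types and both samples, as log2(CPM + 1), with genes in rows by role and 2 columns per type. The first 2 columns, the myelinating Schwann cells, are the brightest for 24 of the 28 genes, and *Dhh*, *Cadm4*, *Arhgef10* and *Adgrg6* are brighter in another column.

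*Ncmap* and *Mag* are described without a test, since they named the myelinating cells. *Ncmap*, a membrane protein of the sheath (chr4:135369576-135398227), stood at 1525 and 1530 CPM in those cells and at no more than 25.2 in any other type, a log2 fold change of 7.35 ± 0.18 (SE) against the mean of the others. *Mag*, a lectin on the inner layer facing the axon (chr7:30899176-30914873), stood at 330 and 320 CPM, and at 35.5 and 46.2 in non-myelinating Schwann cells, the next highest type. Its log2 fold change was 6.02 ± 0.09. For both genes the 2 samples of myelinating cells lay close together and apart from those of every other type. At 1000 UMIs per cell, *Ncmap* had a UMI in 71.9% of the myelinating cells of replicate 1 (exact binomial 95% interval 69.6 to 74.1%) and in 73.4% of replicate 2 (71.1 to 75.5%), while unthinned cells gave 96.5% and 96.7%. *Mag* had a UMI in 27.1% and 27.5% of thinned myelinating cells. These shares come from 1 random draw per cell, and the intervals cover counting error only. Low shares are therefore given as the mean over all draws, and mural cells (median depths of 8390 and 8812.5 UMIs) serve as a type that should lack both genes. *Ncmap* had a mean share of 0.909% and 0.868% in mural cells and of 0.305% and 0.392% once their doublets were left out, beside 72.2% and 72.5% in myelinating cells. *Mag* had a mean share of 3.93% and 4.96% in non-myelinating Schwann cells and of 0.170% and 0.186% in SGCs. In mural cells it was 0.601% and 0.443%, and 0.492% and 0.288% without doublets, so the shares in SGCs did not exceed this background.

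The genes of the compact membrane were all higher in myelinating Schwann cells, 5 of 5 against the mean of the 7 others with a median log2 fold change of 4.61, and 5 of 5 against non-myelinating Schwann cells. In the latter comparison 17.4% of all genes tested were called higher and 17.9% lower. *Pllp* (plasmolipin, a small membrane protein of the same family as *Mal*; chr8:94674894-94696278) stood at 564 and 600 CPM in myelinating cells, at 63.5 and 70.6 in endothelial cells, and at no more than 20.9 in any other type. Its log2 fold change was 5.91 ± 0.12 (SE; adjusted p = 1.1e-15, edgeR). Endothelial cells were thus the second type for this gene. *Mbp*, the basic protein that joins the cytoplasmic faces of the membrane, stood at 6721 and 7087 CPM, against 747 in both samples of non-myelinating Schwann cells. *Pmp22*, whose duplication is the most common cause of Charcot-Marie-Tooth disease, stood at 6888 and 7425, against 776 and 810. Both showed a similar step between the 2 kinds of Schwann cell, with log2 differences of 3.36 ± 0.28 for *Mbp* and 3.32 ± 0.17 for *Pmp22*. *Mal*, a proteolipid that carries membrane to the sheath, stood at 1428 and 1480 CPM in myelinating cells and at 396 and 428 in non-myelinating ones. In endothelial cells *Mal* was at 339 and 363, and the difference between those cells and the non-myelinating Schwann cells was within its error (0.17 ± 0.16 on the log2 scale, adjusted p = 0.40). *Cd9*, a tetraspanin found on many cells, had the smallest step of the group: 4806 and 5013 CPM in myelinating cells, 2231 and 2270 in non-myelinating ones, and 1753 and 1617 in neurons.

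Among the 4 genes of adhesion and junctions other than *Mag*, 4 were higher in myelinating Schwann cells than in the mean of the 7 others (median log2 fold change 6.30). Against non-myelinating Schwann cells 3 were higher and 1 lower, beside 17.4% and 17.9% of all genes tested. *Gldn* (gliomedin, which Schwann cells release at the node of Ranvier; chr9:54286486-54341786) stood at 436 and 422 CPM and at no more than 9.45 in any other type, with a log2 fold change of 6.87 ± 0.16 (adjusted p = 2.9e-15). *Cldn19*, a claudin of the tight junctions within the sheath (chr4:119255414-119262438), stood at 609 and 606 against no more than 12.1 elsewhere, with a log2 fold change of 6.84 ± 0.10 (adjusted p = 5.7e-17). *Nfasc* (neurofascin; chr1:132564690-132741797) was at 346 and 376 CPM, and its log2 fold change was 5.75 ± 0.11 (adjusted p = 5.0e-16). It has a glial form at the paranode and a neuronal form at the node, which these 3′ counts do not separate. Neurons came second for it, at 37.9 and 35.9, and were above every type but the myelinating cells (for example by 1.95 ± 0.24 on the log2 scale over non-myelinating Schwann cells, adjusted p = 3.0e-06). *Cadm4* was the exception of the group and is described with the genes that were highest elsewhere.

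The 2 genes of the outer scaffold were low in every type other than the myelinating cells. *Prx* (periaxin; chr7:27499324-27520214) and *Drp2* (chrX:134404551-134456573) encode proteins that bind each other and tie the outer membrane of the sheath to dystroglycan. *Prx* stood at 1062 and 1098 CPM and at no more than 29.6 in any other type, a log2 fold change of 6.44 ± 0.12 (adjusted p = 5.0e-16). *Drp2* stood at 500 and 540 against no more than 12.3, a log2 fold change of 6.45 ± 0.11 (adjusted p = 2.3e-16). The fold changes of the 2 partners thus differed by less than their standard errors. Of 7 other genes of the dystroglycan complex and its laminin ligands, 6 were higher in myelinating Schwann cells than in the mean of the 7 others. The remaining 1 was lower, and the median log2 fold change was 1.03, beside 26.4% higher and 24.7% lower over all genes tested. *Dag1*, dystroglycan itself, was at 823 and 879 CPM in myelinating cells and at 446 and 394 in non-myelinating ones, while *Lamb2* was lower than the mean of the 7 others (log2 fold change -0.38 ± 0.09). Against non-myelinating Schwann cells 3 of these 7 genes were higher, 2 (*Dmd* and *Sgce*) lower and 2 not called, with a median of 0.23. In that comparison 17.4% of all genes tested were higher and 17.9% lower.

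The enzymes of myelin lipids, *Cnp* and *Bcas1* were higher in myelinating Schwann cells in 5 of 5 cases, with a median log2 fold change of 5.60. *Fa2h*, which adds a hydroxyl group to the fatty acids of myelin sphingolipids (chr8:111345135-111393824), stood at 258 and 282 CPM against no more than 11.7 elsewhere, a log2 fold change of 6.26 ± 0.10 (adjusted p = 1.8e-16). *Ugt8a*, which makes galactosylceramide from ceramide (chr3:125865271-125938619), stood at 506 and 533, and at 34.8 and 34.7 in SGCs, the next type. Its log2 fold change was 5.78 ± 0.12 (adjusted p = 1.6e-15). *Gal3st1*, which sulfates galactosylceramide to sulfatide, did not share that pattern: it stood at 176 and 171 CPM in myelinating cells, but at 114 and 121 in non-myelinating Schwann cells and at 71.5 and 74.5 in SGCs. The difference from non-myelinating Schwann cells was 0.72 ± 0.13 on the log2 scale (adjusted p = 0.00028), and it was lost when 49 cells were drawn per type. *Bcas1*, a protein of myelin and of myelin-forming cells, stood at 749 and 770 CPM, with SGCs next at 44.5 and 45.1. *Cnp*, the cyclic nucleotide phosphodiesterase that keeps cytoplasmic channels of the sheath open, was at 1678 and 1732 CPM in myelinating cells and at 734 and 793 in non-myelinating ones. Of 10 other genes of sphingolipid synthesis and breakdown, 5 were higher in myelinating Schwann cells than in the mean of the 7 others, 3 lower and 2 not called. Their median log2 fold change was 0.24, and over all genes tested 26.4% were higher and 24.7% lower. *Sptlc2*, of the first step of ceramide synthesis, was higher than that mean (log2 fold change 1.13 ± 0.07), although endothelial cells held more of it, at 221 and 219 CPM against 150 and 174.

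*Emid1* and *Fam178b* have no role assigned here. *Emid1* (chr11:5106265-5152257) stood at 505 and 492 CPM in myelinating Schwann cells, with a log2 fold change of 6.19 ± 0.09 (adjusted p = 7.5e-17). Mural cells followed at 95.2 and 83.3 and endothelial cells at 39.6 and 43.1, and no other type passed 6.47. Without cells called doublets the mural cells were at 95.6 and 84.0, close to the levels with them. *Fam178b* (chr1:36562692-36683183) stood at 648 and 655 CPM and at no more than 14.2 in any other type, a log2 fold change of 6.37 ± 0.17 (adjusted p = 1.4e-14).

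The 6 neuropathy genes of trafficking and phosphoinositides were all higher in myelinating Schwann cells than in the mean of the 7 others, with a median log2 fold change of 1.92. *Ndrg1*, whose loss causes a demyelinating neuropathy, was the most abundant, at 1893 and 1875 CPM in myelinating cells, 779 and 773 in SGCs, 547 and 559 in non-myelinating Schwann cells, and 495 and 540 in endothelial cells. *Sh3tc2*, a protein of recycling endosomes, stood at 101 and 106, and at 65.4 and 70.4 in non-myelinating Schwann cells. *Mtmr2* is a phosphatase of phosphoinositides and *Sbf2* its inactive partner. *Mtmr2* was at 133 and 124 CPM and *Sbf2* at 358 and 365, and for both genes endothelial cells came second, at 76.5 and 83.5 for *Mtmr2* and at 296 and 303 for *Sbf2*. The myelinating cells exceeded the endothelial cells by 0.77 ± 0.11 on the log2 scale for *Mtmr2* (adjusted p = 2.0e-05) and by 0.36 ± 0.08 for *Sbf2* (adjusted p = 0.0016). *Fgd4*, which activates the small GTPase Cdc42, stood at 154 and 153 CPM in myelinating cells, 119 and 123 in macrophages, 114 and 120 in non-myelinating Schwann cells, and 112 in both samples of SGCs. Its difference from macrophages did not pass the test (0.24 ± 0.10, adjusted p = 0.055). With the replicate as a block it did, and at the coarser and the finer clustering its sign turned, to -0.22 and -0.15. None of 5 other phosphoinositide genes (*Sbf1*, *Fig4*, *Vac14*, *Pikfyve* and *Mtmr1*) was called against the mean of the 7 others. Their median log2 fold change was 0.03, and over all genes tested 26.4% were higher and 24.7% lower. The largest of the 5 was that of *Pikfyve*, at 0.18 ± 0.08 (adjusted p = 0.09).

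The promoters of some of these genes hold motifs of factors known from Schwann cell biology. *Sox10* and *Egr2* drive the myelin program, *Pou3f1* precedes *Egr2*, and *Tead1* acts with the coactivators of the Hippo pathway. RefSeq promoter windows on GRCm38.p6, from 250 bases before to 50 bases after a transcription start, were found for 21 of the 28 genes (38 windows). Both strands were searched for ACAAAG or ACAATG (SOX), GCGTGGG (EGR), GGAATG (TEAD) and ATGCAAAT (POU octamer). Matches of different motifs could overlap and were then counted for each. The windows below are those of *Prx* and *Cnp*, which held matches to 3 of the motifs each, and of *Mag* and *Ncmap*, which named the cells. *Mtmr2* also matched 3 of the motifs (SOX, TEAD and POU) over its windows, which are not printed. The window of *Dhh*, which was highest in SGCs among the named types, is also given and held none of the motifs. Where a gene had several starts in the table, the window with the most matches was taken, or the first listed on a tie. For *Mag*, whose windows partly overlap, it was 1 of 3, and a TEAD match lay in a window not printed. For *Ncmap* it was 1 of 2, and the printed window lies at an inner start of the gene. The windows are printed in the direction of transcription, with matches in capitals and with a match to the opposite strand shown as its reverse complement.
*Prx*: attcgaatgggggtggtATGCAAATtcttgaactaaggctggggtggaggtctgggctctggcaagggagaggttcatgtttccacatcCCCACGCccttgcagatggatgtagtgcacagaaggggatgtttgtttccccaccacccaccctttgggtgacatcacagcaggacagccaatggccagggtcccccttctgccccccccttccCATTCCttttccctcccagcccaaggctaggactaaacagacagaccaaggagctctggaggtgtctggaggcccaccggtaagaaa
*Cnp*: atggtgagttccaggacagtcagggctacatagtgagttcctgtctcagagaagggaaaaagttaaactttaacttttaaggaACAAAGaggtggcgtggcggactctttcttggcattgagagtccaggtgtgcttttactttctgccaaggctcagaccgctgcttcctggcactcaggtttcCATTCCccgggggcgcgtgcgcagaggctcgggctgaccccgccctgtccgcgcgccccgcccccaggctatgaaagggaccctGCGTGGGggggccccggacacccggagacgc
*Mag*: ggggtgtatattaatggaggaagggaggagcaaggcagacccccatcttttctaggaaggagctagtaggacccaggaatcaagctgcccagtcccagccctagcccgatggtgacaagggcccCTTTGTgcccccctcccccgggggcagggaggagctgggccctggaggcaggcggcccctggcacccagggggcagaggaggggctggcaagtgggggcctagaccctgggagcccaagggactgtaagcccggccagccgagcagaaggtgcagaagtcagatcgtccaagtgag
*Ncmap*: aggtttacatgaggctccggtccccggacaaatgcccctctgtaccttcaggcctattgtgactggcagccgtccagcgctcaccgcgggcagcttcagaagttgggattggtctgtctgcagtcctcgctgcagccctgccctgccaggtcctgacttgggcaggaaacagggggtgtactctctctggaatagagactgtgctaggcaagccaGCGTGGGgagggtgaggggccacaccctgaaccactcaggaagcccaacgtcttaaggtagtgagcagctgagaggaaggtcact
*Dhh*: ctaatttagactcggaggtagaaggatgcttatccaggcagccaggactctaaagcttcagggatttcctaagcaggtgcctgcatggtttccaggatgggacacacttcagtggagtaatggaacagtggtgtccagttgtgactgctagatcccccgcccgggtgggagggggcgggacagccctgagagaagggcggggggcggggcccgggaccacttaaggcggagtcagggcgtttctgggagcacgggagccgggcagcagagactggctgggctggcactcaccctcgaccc
The windows are *Prx* at chr7:27499074-27499373 (+ strand), *Cnp* at chr11:100574689-100574988 (+ strand), *Mag* at chr7:30914814-30915113 (- strand), *Ncmap* at chr4:135385623-135385922 (- strand) and *Dhh* at chr15:98898491-98898790 (- strand). The SOX motif was in 13 of the 38 windows (34.2%), against 28.6% of all 32851 promoter windows. The EGR motif was in 4 of 38 (10.5%), in *Cnp*, *Ncmap*, *Prx* and *Sbf2*, against 5.04% of all windows. The TEAD motif was in 11 of 38 (28.9%), against 14.7%, and the octamer in 2 of 38, in *Mtmr2* and *Prx*, against 1.74%. The windows of the 28 genes were also richer in GC, with a median of 61.2% against 52.7%, and held a median of 13 CpG against 7. A match describes letters only, and binding was not measured.

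Of 9 transcription factors of the Schwann cell lineage, 7 were higher in myelinating Schwann cells than in the mean of the 7 others. Another, *Nab1*, was lower and *Yy1* was not called, with a median log2 fold change of 1.80. Over all genes tested, 26.4% were higher and 24.7% lower. Against non-myelinating Schwann cells 4 of the 9 were higher, 1 (*Zeb2*) lower and 4 not called, with a median of 0.18. There the shares over all genes were 17.4% and 17.9%. *Egr2* was also among the markers scored to name the myelinating cells. *Pou3f1* showed the largest difference of the 9, at 750 and 844 CPM in myelinating cells and 80.2 and 55.7 in non-myelinating ones. The unnamed cluster that *Pou3f1* leads entered none of these comparisons. *Egr2* stood at 169 and 195 in myelinating cells and at 47.2 and 23.1 in non-myelinating Schwann cells. *Sox10* stood at 305 and 302 CPM in the myelinating cells and at 384 and 352 in non-myelinating Schwann cells. That difference was not called (-0.13 ± 0.10 on the log2 scale, adjusted p = 0.36, edgeR). *Tead1* was at 499 and 496, with the non-myelinating Schwann cells at 300.1 and 307 and the SGCs at 197 and 198.

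Non-myelinating Schwann cells held less of most of the 28 genes. Of the 28, 24 were higher in myelinating than in non-myelinating Schwann cells, beside 17.4% of all genes tested, and 2 (*Cadm4* and *Adgrg6*) were lower, beside 17.9%. *Dhh* and *Arhgef10* were not called. The median log2 difference of the 28 was 3.23, beside 0.03 over all genes tested. Without *Ncmap* and *Mag*, 22 of 26 were higher and 2 lower, with a median of 2.65. With counts scaled by library size alone, the median over all genes moved to -0.09 and the calls over all genes from 3126 higher and 3216 lower to 2291 and 4127, while the 28 genes still gave 24 and 2. The largest difference apart from *Ncmap* was that of *Emid1*, at 7.57 ± 0.22, and the smallest called was that of *Fgd4*, at 0.54 ± 0.10. Against SGCs, 25 were higher and 2 (*Dhh* and *Adgrg6*) lower, beside 23.1% and 26.5% of all genes, and *Cadm4* was not called. Without *Ncmap* and *Mag* the counts against SGCs were 23 and 2 of 26.

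**Figure D3:**
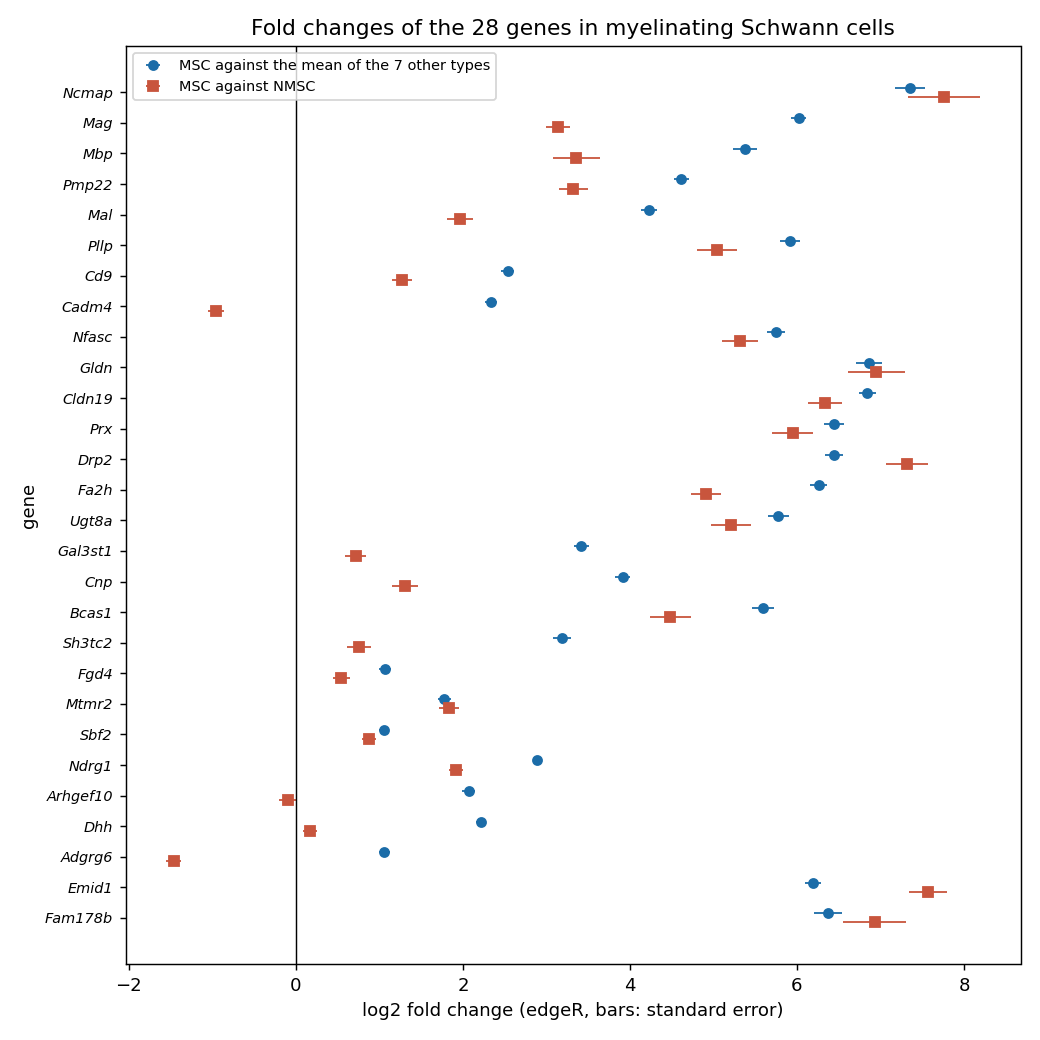
Log2 fold changes of the 28 genes in myelinating Schwann cells (MSC), with bars for the standard error. Circles compare with the mean of the 7 others and all lie above 0, and squares compare with non-myelinating Schwann cells (NMSC), where *Cadm4* (-0.95) and *Adgrg6* (-1.46) lie below 0.

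Between the 2 glial types without myelin the list was split. In SGCs 5 of the 28 genes (*Ugt8a*, *Ndrg1*, *Dhh*, *Drp2* and *Mtmr2*) were higher than in non-myelinating Schwann cells, beside 18.4% of all genes, 16 were lower, beside 13.1%, and 7 were not called. *Drp2* was near the floor in both types. Its mean share of thinned cells with a UMI was 0.523% and 0.584% in SGCs, and 0.466% and 0.232% in non-myelinating Schwann cells. *Mag* showed the largest difference, at 1.78 and 1.72 CPM in SGCs against 35.5 and 46.2 (log2 difference -4.29 ± 0.18). *Ugt8a* went the other way, at 34.8 and 34.7 in SGCs against 16.1 and 15.1 (1.42 ± 0.24, adjusted p = 0.00023), and so did *Ndrg1* (0.75 ± 0.08, adjusted p = 1.7e-06). These counts depend on the scaling. With library size alone, 3 were higher (*Drp2* and *Mtmr2* were no longer called) and 18 lower, the median over all genes moved from 0.06 to -0.19, and the calls over all genes from 3304 higher and 2349 lower to 1972 and 4556.

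The 4 genes that were not highest in myelinating Schwann cells in both samples were a ligand, a receptor, an adhesion protein and an exchange factor. *Dhh*, the Hedgehog ligand that Schwann cells send to the cells of the perineurial sheath (chr15:98891152-98898540), stood at 252 and 240 CPM in SGCs, at 188 in both samples of myelinating Schwann cells, and at 176 and 194 in non-myelinating ones. SGCs were above both kinds of Schwann cell, by 0.50 ± 0.08 over the myelinating (adjusted p = 7.9e-05) and by 0.67 ± 0.08 over the non-myelinating cells (adjusted p = 9.8e-06). With 49 cells drawn per type the difference between SGCs and myelinating cells was no longer called. The 2 kinds of Schwann cell did not differ beyond their spread (0.17 ± 0.08, adjusted p = 0.14). All other named types lay far below the 3 glial types, the highest being the macrophages at 39.3 and 43.8. An unnamed cluster led by *Pou3f1*, which entered no comparison, held more *Dhh* than any named type and is described at the end. In empty droplets *Dhh* was at 244 and 183 CPM, as much as in the glia, and with free RNA subtracted the difference between SGCs and myelinating Schwann cells was still called, at 0.50 on the log2 scale.

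*Adgrg6* (chr10:14402583-14545659) is the adhesion receptor of Schwann cells through which cyclic AMP rises at the start of myelination. It stood at 396 and 417 CPM in non-myelinating Schwann cells, at 267 and 269 in SGCs, and at 137 and 129 in myelinating Schwann cells, and the samples of these 3 types did not overlap. Myelinating cells were lower than non-myelinating ones by 1.46 ± 0.09 on the log2 scale (adjusted p = 1.8e-09) and lower than SGCs by 1.12 ± 0.09 (adjusted p = 2.0e-08). Macrophages held 104 and 106, and the difference of 0.24 ± 0.10 from the myelinating cells (adjusted p = 0.043) was no longer called in 6 of the alternatives tried, among them DESeq2 and the other 2 clustering resolutions. Of 4 genes that encode known partners of the receptor, 3 were higher in myelinating Schwann cells than in the mean of the 7 others (*Prnp*, *Lama2* and *Col4a1*) and *Col4a2* was not called, with a median log2 fold change of 0.49. Against non-myelinating Schwann cells 0 of the 4 were higher, *Prnp* (-1.59 ± 0.09, adjusted p = 7.6e-10) and *Lama2* (-0.50 ± 0.14, adjusted p = 0.0090) were lower and 2 were not called, with a median of -0.39. Over all genes tested, 26.4% were higher and 24.7% lower than the mean of the 7 others. The shares against non-myelinating Schwann cells were 17.4% higher and 17.9% lower.

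*Cadm4* (Necl-4, which Schwann cells use to hold the axon along the internode; chr7:24482023-24504539) stood at 321 and 359 CPM in non-myelinating Schwann cells, at 159 and 157 in myelinating ones and at 154 and 149 in SGCs. The myelinating cells were lower than the non-myelinating by 0.95 ± 0.10 on the log2 scale (adjusted p = 7.1e-07), and their difference from SGCs was -0.05 ± 0.09 (adjusted p = 0.73). Neurons (17.4 and 21.9) and macrophages (23.7 and 20.0) followed, and no other type passed 14.5. Of the 3 other genes of the family, *Cadm3* was higher in myelinating Schwann cells than in the mean of the 7 others, at 152 and 148 CPM, with neurons at 83.6 and 91.5 and no other type above 11.2. *Cadm3* encodes the axonal partner of *Cadm4*. *Cadm2* was also higher than that mean of log2 levels (0.94 ± 0.25). Non-myelinating Schwann cells held 2098 and 2357 CPM of it, and the myelinating cells were lower than them (-3.66 ± 0.37). *Cadm2* was also among the markers scored to name the non-myelinating cells. *Cadm1* was lower than the mean of the 7 others (-0.36 ± 0.13).

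*Arhgef10*, a guanine nucleotide exchange factor (chr8:14911663-15001085), stood at 191 and 179 CPM in non-myelinating Schwann cells and at 148 and 163 in myelinating ones, which did not differ beyond their spread (-0.10 ± 0.11, adjusted p = 0.54). SGCs were lower than both, at 78.3 and 84.0, by 0.83 ± 0.10 against the myelinating cells (adjusted p = 3.8e-06). Against the mean of the log2 levels of the 7 others the 4 genes were still higher in myelinating Schwann cells, with log2 fold changes of 2.34 ± 0.07 for *Cadm4*, 2.22 ± 0.06 for *Dhh*, 2.07 ± 0.07 for *Arhgef10* and 1.06 ± 0.07 for *Adgrg6*. In CPM, the myelinating cells held 12.9% of the sum of *Adgrg6* over the 8 types.

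**Figure D4:**
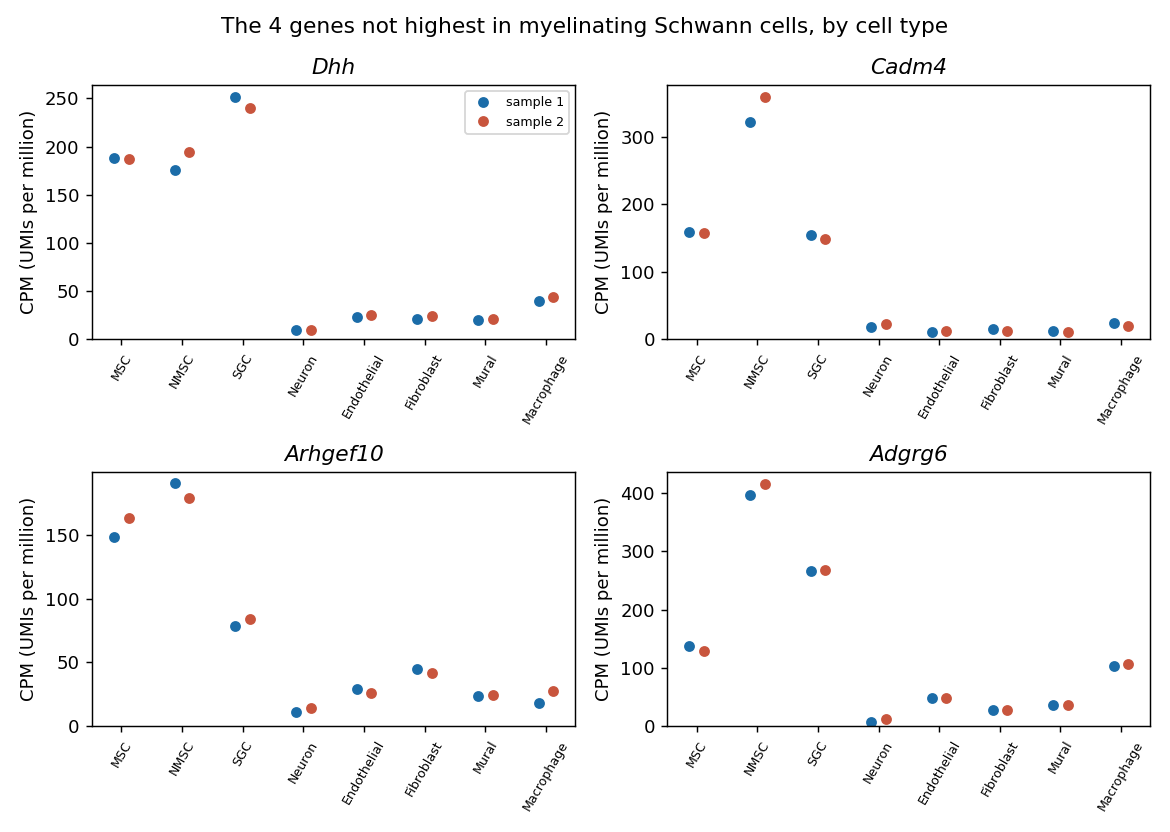
Levels of *Dhh*, *Cadm4*, *Arhgef10* and *Adgrg6* in CPM in each cell type, with 1 point per sample and each axis starting at 0. Among these named types *Dhh* is highest in SGCs (252 and 240), and the other 3 genes are highest in non-myelinating Schwann cells (NMSC). Myelinating Schwann cells (MSC) are at 137 and 129 for *Adgrg6*, and unnamed clusters are not shown.

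Genes of the Hedgehog pathway, among them those that receive the *Dhh* signal, were measured from a list of 14, of which 13 passed the filter on low counts. In myelinating Schwann cells 3 were higher than in the mean of the 7 others (*Smo*, *Gli2* and *Disp1*), 3 lower, *Gli3* and *Boc* among them, and 7 not called. Their median log2 fold change was 0.00. Over all genes tested, 26.4% were higher and 24.7% lower, so these counts do not set the list apart. *Ptch1*, the receptor and a target of the pathway, was at 182 and 215 CPM in fibroblasts, its highest named type. It was at 136 and 134 in non-myelinating Schwann cells, and at 73.4 and 74.0 in myelinating ones. Perineurial cells were not among the named types, so no levels are given for them. *Gas1*, a coreceptor, was at 384 and 235 in fibroblasts and at no more than 77.2 in any other type. *Disp1*, which releases Hedgehog ligands from the cell, was at 92.8 and 96.3 in myelinating Schwann cells and at 107 and 70.8 in endothelial cells, against no more than 6.4 in SGCs.

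The lists that remain held partners of other genes named above. Beside their counts stand the shares over all genes tested, 26.4% higher and 24.7% lower against the mean of the 7 others. Against non-myelinating Schwann cells these shares were 17.4% and 17.9%. Of 7 genes of the node, paranode and juxtaparanode, 1 was higher in myelinating Schwann cells than in the mean of the 7 others, 4 were lower and 2 were not called, with a median log2 fold change of -0.73. Among the 4, *L1cam* belongs to the marker pair that named the non-myelinating Schwann cells, so its direction was partly set by the naming. The one that was higher was *Nrcam*, which binds gliomedin at the node, at 213 CPM in both samples, against 82.4 and 90.5 in SGCs. Of 6 genes of neuregulin receptors and the *Lgi4* pathway, 3 were higher (*Erbb2*, *Erbb3* and *Lgi4*), 2 lower (*Adam22* and *Nrg1*) and 1 not called, with a median of 0.75, yet against non-myelinating Schwann cells 0 of the 6 were higher and 4 were lower. Among these 4, *Adam23* was also scored as a marker to name the non-myelinating cells, so its direction does not count as separate evidence. Of 10 other genes of demyelinating neuropathy, 6 were higher, among them *Egr2*, *Gjb1* and *Pmp2*, *Hk1* was lower and 3 were not called, with a median of 1.42. *Egr2*, *Gjb1* and *Pmp2* were also among the markers scored to name the myelinating cells. Among the genes outside the list whose log2 levels were most like the mean of the 28 genes over the 16 profiles of 8 types were *Mlip*, with a correlation of 0.989 (Pearson's r), and *Secisbp2l*, with 0.987. These correlations are descriptions, since the profiles of all types share the same 2 libraries.

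The 2 clusters that made up the myelinating Schwann cells differed in their levels. The clusters had 2241 and 1085 cells before the limits on UMIs were set, with median depths of 5802 and 4300 UMIs and mitochondrial shares of 7.73% and 11.1%. Because clusters were drawn from the same cells, these differences are given with no test. The 28 genes were higher in the smaller cluster in both samples without overlap for 20 genes, lower for 5 and overlapping for 3. The share of all genes that separated in this way was not computed, so these counts do not set the 28 genes apart from other genes. *Fam178b* was at 799 and 862 CPM in the smaller cluster and at 573 and 594 in the larger, a ratio of 1.42, and *Dhh* at 234 and 237 against 165 and 173. *Mtmr2* went the other way, at 88.6 and 85.4 in the smaller cluster against 155 and 135 in the larger, and *Adgrg6* too, at 93.3 and 101 against 158 and 138. The other 3 that were lower were *Fgd4*, *Sbf2* and *Cnp*, with ratios of 0.864, 0.890 and 0.892. The shallower depth and higher mitochondrial share of the smaller cluster moved with these values, and their part in them was not tested.

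**Figure D5:**
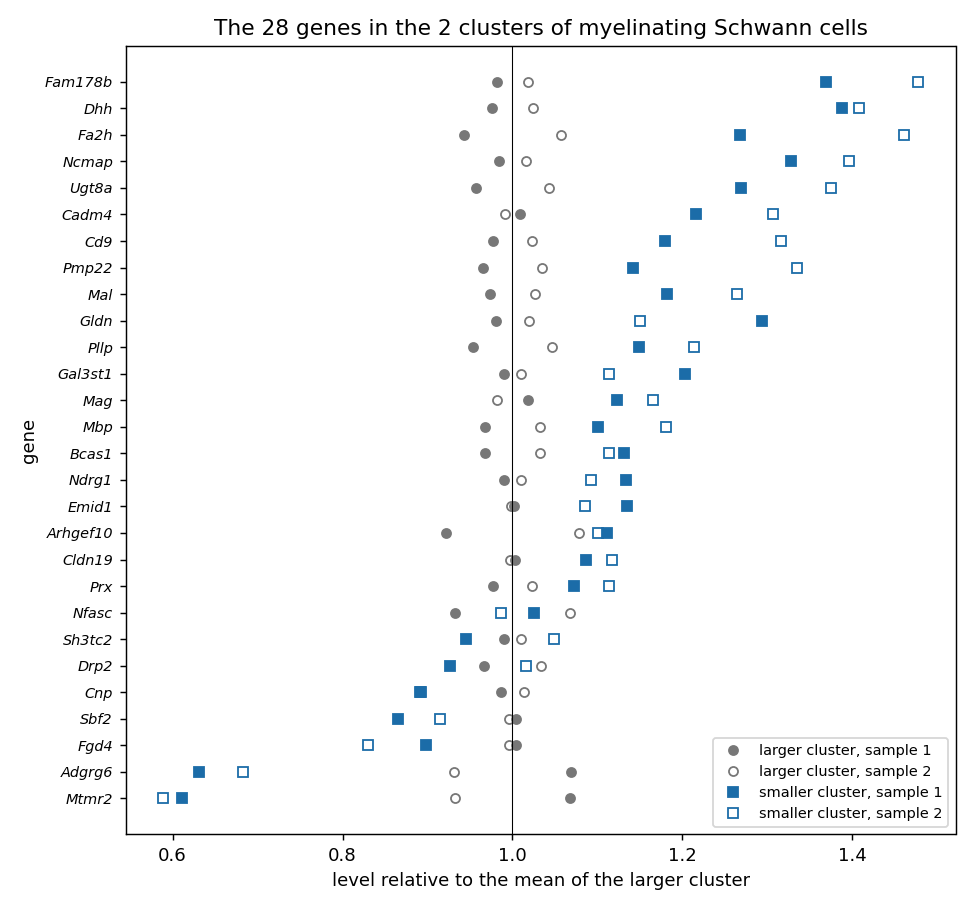
Level of each of the 28 genes in the 2 clusters of myelinating Schwann cells, relative to the mean of the larger cluster, with 1 symbol per cluster and sample. Genes run from *Mtmr2* (ratio 0.60) at the bottom to *Fam178b* (1.42) at the top. Of them, 20 lie higher in the smaller cluster in both samples, and the share of all genes that do so was not computed.

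In types far from the Schwann cell lineage most of the 28 genes were found at low levels, and some of these fell once droplets called doublets were removed. The share of doublets was between 3.25% and 8.30% in endothelial cells, fibroblasts, mural cells and macrophages and at most 0.497% in myelinating Schwann cells. *Mbp* stood at 106 and 114 CPM in mural cells and at 43.6 and 52.4 once doublets were removed. In the same cells *Ncmap* fell from 19.7 and 11.8 to 4.6 and 3.6. Endothelial *Mal* kept its level, at 339 and 363 with doublets and at 345 and 356 without. With doublets removed, 28 genes were higher in myelinating Schwann cells than in the mean of the 7 others and 24 were higher than in each, *Fgd4* now among them.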

How the data were processed

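Both samples, replicates 1 and 2 of naive DRGs, were measured by single-cell RNA-seq. The authors made 10x Chromium 3′ libraries from live sorted cells and counted UMIs with Cell Ranger on mm10, and deposited raw UMI counts per gene and barcode with no selection of cells. Gene positions come from GENCODE M21 on GRCm38. The members, role groups, gene lists and tests were chosen with earlier results of these data known.

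Cells were called along the steps of Cell Ranger with at least 500 UMIs and over 300 genes, and clustered together in Seurat 5.3.0 after SCTransform (sctransform 0.4.2) at a resolution of 0.8. The 28 genes and the marker pairs were kept out of the variable genes. The scoring that named clusters and the limits per cluster on UMIs and mitochondrial share (median plus 5 MAD) were chosen after the data were seen. Of 20 clusters, 4 were removed, 1 of them with the marker pairs of SGCs and myelinating Schwann cells, and 2 stayed unnamed. Doublets called by Scrublet (scanpy 1.11.5), 2.39% and 2.86% of cells, were kept and removed in an alternative.

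UMI counts of each type and sample (profiles of 20 cells or more) were summed and tested in one fit of edgeR 4.0.16 under R 4.3.3 (TMM, quasi-likelihood test), over genes with 10 counts or more in 2 or more profiles. CPM were computed from the same sums. Counts were simulated for myelinating Schwann cells against the mean of the others, with 200 of 17961 genes changed by a log2 fold of 1. The fit recovered 59.5% of the 200, with 6.30% of calls on unchanged genes. The simulation gave all types the same mean profile apart from the 200 genes, with a dispersion of 0.05. In the data far more genes differed between types, so these rates need not hold there. All profiles of a replicate derive from the same dissociated tissue and are paired by it. Their deviations from the type means correlated with a median of 0.0386 over 28 pairs of types (-0.00933 to 0.125). Named with full statistics were *Ncmap* and *Mag*, the 10 other genes with the largest fold change in myelinating Schwann cells among those called, and every gene not highest there in both samples. Some genes of the partner lists enter the counts and are not reported here by name. Summed UMIs per type and sample ran from 2964238 in mural cells to 54038079 in SGCs, and neurons had the fewest cells (52 and 49). Alternatives were DESeq2 1.42.0, no TMM, no filter, the replicate block, free RNA subtracted, doublets removed, simpler cell calling, resolutions of 0.4 and 1.2, the 28 genes kept for clustering, 49 cells per type, naming by marker pairs alone, each replicate left out and unthinned cells. Added after the data were seen were keeping 2 of the removed clusters, limits over all cells, and leaving out cells with shared barcodes.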

Additional observations from a re-analysis of the deposited data

How the results depend on the processing

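The count of 28 genes higher in myelinating Schwann cells than in the mean of the 7 others was the same in every alternative run. Against non-myelinating Schwann cells the count ran from 21 to 25 higher, with 2 lower throughout, and from 20 to 24 genes were higher than in each other type. With 49 cells per type the genes called over the whole table fell from 4746 to 1160 higher and from 4442 to 917 lower against the mean, from 3126 to 580 and 3216 to 745 for the 2 kinds of Schwann cell, from 4151 to 840 and 4760 to 1237 against SGCs, from 3304 to 708 and 2349 to 539 between SGCs and non-myelinating Schwann cells, and from 770 to 216 for genes higher than in each type, and *Sh3tc2*, *Fgd4* and *Gal3st1* lost their call against non-myelinating Schwann cells. The comparison of SGCs with non-myelinating Schwann cells moved most. The 5 genes higher there ran from 1 to 6 and the 16 lower from 10 to 19: 3 were higher without TMM, 1 higher and 10 lower with 49 cells per type, a setting with fewer counts, 6 and 19 without doublets, and 5 and 12 with simpler cell calling. Signs of that comparison turned for *Cldn19* (0.37 at a resolution of 0.4, 0.73 with 49 cells per type), *Fa2h* (0.33 with 49 cells per type) and *Mtmr2* (-0.0044 with 49 cells per type), and the cause was not tested. With the replicate block, 28 genes were higher than the mean, 24 higher and 2 lower than in non-myelinating Schwann cells, 5 higher and 16 lower in SGCs, and 24 higher than each type, so the block changed no call in these counts but that of *Fgd4* against macrophages. Leaving out a replicate leaves 1 profile per type and no test, and the 28 fold changes against the mean then ran from 0.98 to 7.61 with a largest change of 0.34. Without thinning, all 56 shares of myelinating cells with a UMI (28 genes in 2 samples) were higher by more than their counting interval. Mural cells had the lowest sums of UMIs, 3393564 and 2964238, which limits the low levels there most, and neurons the fewest cells, 52 and 49, with sums of 5755991 and 5102924.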

Other observations

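An unnamed cluster led by *Pou3f1* entered no comparison. Its 787 and 730 thinned cells held UMIs of a median of 4 of the 28 genes, and the 28 genes made up 0.568% and 0.595% of its UMIs, between the levels of SGCs and of non-myelinating Schwann cells. *Dhh* was higher there than in any named type, at 333 and 314 CPM, while *Mbp* stood at 468 and 501 and *Cnp* at 730 and 760. A second unnamed cluster, led by *Igfbp6*, held 0.292% and 0.320%. The removed cluster with the marker pairs of SGCs and of myelinating Schwann cells held 1.39% and 1.34%, between those 2 types. Cells called doublets made up 75.6% of this removed cluster, 0.706% of the cluster led by *Pou3f1* and 6.25% of that led by *Igfbp6*.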
